A study of Mus musculus with 6 samples.

Results

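The genes described here are 10 outputs and feedback regulators of the ERK pathway: the phosphatases Dusp4, Dusp5 and Dusp6, the Sprouty genes Spry1, Spry2 and Spry4, the Sprouty-related genes Spred1 and Spred2, and the transcription factors Etv4 and Etv5. They were taken by symbol from a table of normalized read counts for 17987 mouse genes, and all 10 were found. They were chosen by symbol after their normalized read counts in the Usp24C1695A and Usp24WT tumors had been seen, so their differences are given as a description with no test, and they are not independent evidence of a direction.

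The RNA came from lung tumors of 3 Usp24C1695A mice (M134, M145 and M164) and 3 Usp24WT mice (M1354, M1364 and M1370), with a single library per mouse. The genotype labels are EgfrL858RUsp24C1695A and EgfrL858RUsp24WT. Mice of both groups carried Scgb1a1-rtTA and a doxycycline-inducible Egfr L858R transgene, and were given doxycycline at 0.5 g/l for 10 weeks. The Scgb1a1 promoter is that of airway secretory (club) cells, so the oncogene was switched on from a secretory cell promoter, whereas C1695A is a change of the catalytic cysteine of Usp24 made in the mouse line by genome editing. The sample titles call the mutant group KO, although the allele changes a residue of the enzyme and does not delete the gene. The growth protocol names the Usp24C1695A line for all 6 mice, and the groups follow the genotype label. Age and sex are not given in the labels.

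ERK is the last kinase of the Ras, Raf and MEK cascade that growth factor receptors such as EGFR switch on. Active ERK induces genes that turn the pathway down again. Dusp proteins remove phosphate from ERK, Sproutys act between the receptor and Raf, and Spreds bring the Ras-inactivating protein neurofibromin to the membrane. Etv4 and Etv5 are ETS transcription factors of the PEA3 subfamily, whose expression follows ERK activity, and Etv5 is also a regulator of alveolar type 2 cells. RNA levels of these genes are therefore widely used as a readout of the pathway, although they do not measure ERK phosphorylation.

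The libraries held 7167000 to 14650273 reads. Library M164 stood apart: its Spearman correlation with the other libraries was 0.905 to 0.932, against 0.961 to 0.985 among the others, and mitochondrial transcripts made up 17.2% of its reads, against 1.74 to 3.10%. Usp24 RNA was at 887, 1054 and 1125 normalized read counts in Usp24C1695A tumors and at 1194, 895 and 1225 in Usp24WT tumors, which does not check a label that rests on an amino acid. The Y-linked genes were found in all 3 Usp24C1695A libraries and in Usp24WT library M1354, and were at 0 in libraries M1364 and M1370. By these genes all 3 Usp24C1695A mice and M1354 were male, and M1364 and M1370 female. Genotype and sex are thus partly confounded. Lung identity was clear in every library, with the surfactant gene Sftpc at 67192 to 246486 in Usp24C1695A tumors and at 240888 to 291169 in Usp24WT tumors.

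Every one of the 10 genes had a lower mean in the Usp24C1695A tumors. For 5 of them (Dusp6, Spry4, Spred1, Spred2 and Etv4) all 3 Usp24C1695A values lay below all 3 Usp24WT values, a pattern that 6.03% of the 16640 genes tested also showed. The log2 fold changes, Usp24C1695A over Usp24WT, ran from -1.07 for Etv4 to -0.29 for Dusp5, with a median of -0.69, beside a median of -0.02 over all genes tested and a middle range of -0.25 to 0.28. Each is the Usp24C1695A mean minus the Usp24WT mean of log2(value + 1). By limma-trend with Benjamini-Hochberg adjustment, 0 of the 10 genes and 0% of all genes tested passed an adjusted p of 0.05 in either direction, where 922 genes had an unadjusted p under 0.05 (edgeR called 0 genes). DESeq2 called 36 genes, 0.0369% of its genes as lower, and 1 of the members, Dusp6. The specimens are bulk tissue, so fewer cells of a type and less RNA per cell cannot be told apart.

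**Figure D1:**
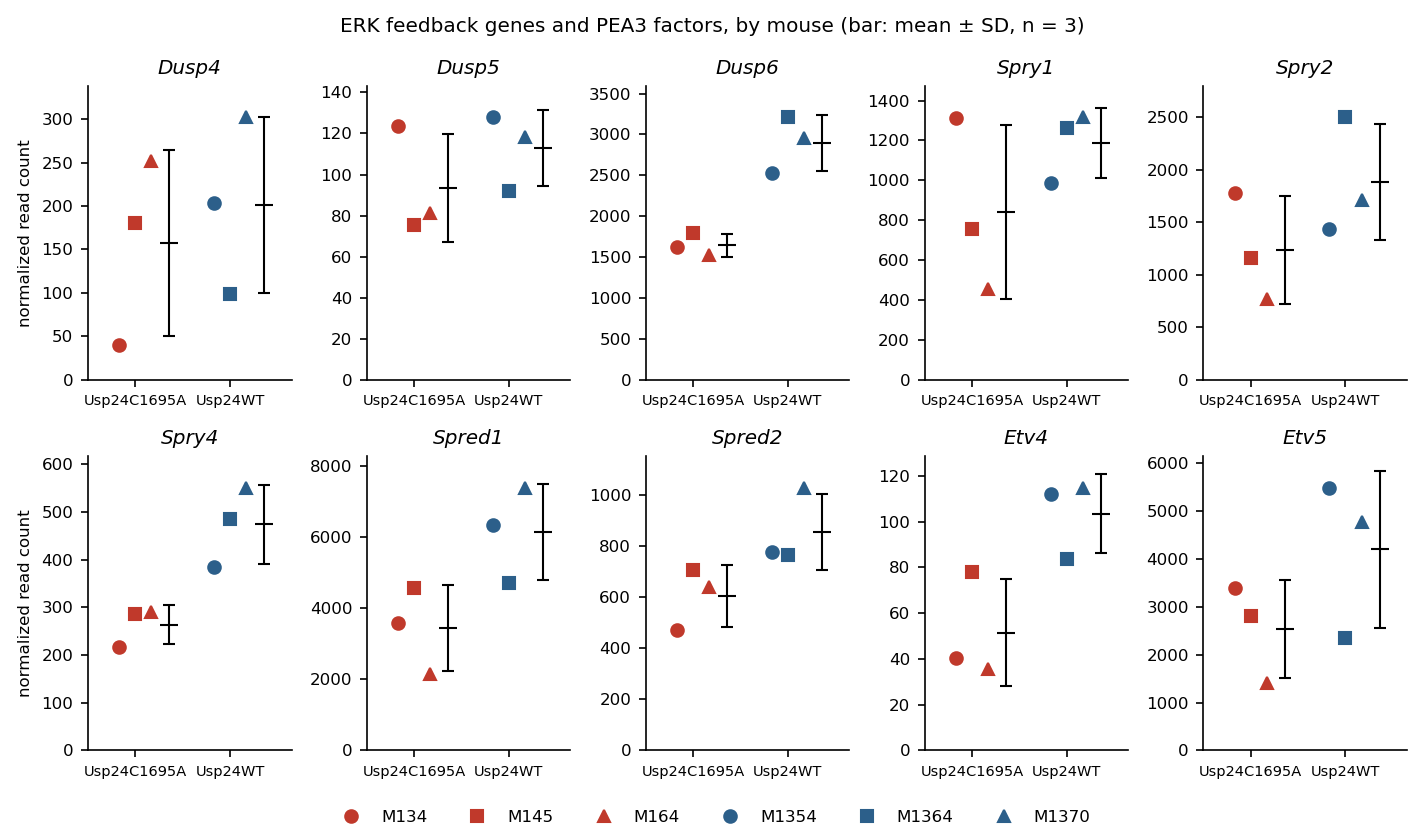
Normalized read count (y axis, linear from 0) of each of the 10 genes in each mouse, with the mean ± SD of the 3 mice beside each group; Usp24C1695A is red and Usp24WT blue. Dusp6 and Spry4 show a clear gap between the groups, Spred1, Spred2 and Etv4 a narrow one, and the groups overlap in the other 5 genes.

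Of the phosphatases, Dusp6, which acts on ERK in the cytoplasm, had the tightest groups. It was at 1619.8, 1789.6 and 1521 normalized read counts in Usp24C1695A mice M134, M145 and M164, against 2531, 3207 and 2953 in Usp24WT mice M1354, M1364 and M1370. The highest mutant value thus stayed well below the lowest wild-type value. The means were 1643 ± 136 in Usp24C1695A tumors and 2897 ± 341 in Usp24WT tumors (SD, n = 3 each), or 56.7% of the Usp24WT mean, with a log2 fold change of -0.81 (SE 0.17). Within a group the highest value was 1.18 times the lowest in Usp24C1695A tumors and 1.27 times in Usp24WT tumors, the narrowest ranges of the 10 genes.

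Dusp5, a nuclear phosphatase that holds ERK in the nucleus, overlapped between the groups. It was at 124, 75.2 and 81.2 in Usp24C1695A tumors, against 128, 92.1 and 118 in Usp24WT tumors (log2 fold change -0.29, SE 0.30). Library M134 reached the upper Usp24WT values, and the other 2 mutant libraries lay below all of them. Dusp4, a nuclear phosphatase of ERK and other MAP kinases, was the most variable gene. It was at 40.5, 180.1 and 251 in Usp24C1695A tumors, against 204, 99.3 and 302 in Usp24WT tumors (log2 fold change -0.57, SE 0.67). The lower mean came from library M134, with 40 reads of Dusp4, and without that library the log2 fold change was 0.22.

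Promoters of the phosphatases and Spreds are shown because these genes span the clearest and the weakest differences between the groups. RefSeq (GRCm38.p6) gave a promoter for 7 of the 10 genes (Dusp5, Dusp6, Spry1, Spry2, Spred1, Spred2 and Etv5). The 250 bases before the start of transcription are printed 5′ to 3′ in the gene's direction. Capitals mark the ETS core GGAA on either strand (TTCC where it lies on the other strand) and, in Dusp5, the serum response element known as the CArG box. Dusp6 lies at chr10:99262981-99263230, Dusp5 at chr19:53528895-53529144, Spred1 at chr2:117120821-117121070 and Spred2 at chr11:19924192-19924441, all on the plus strand.
Dusp6: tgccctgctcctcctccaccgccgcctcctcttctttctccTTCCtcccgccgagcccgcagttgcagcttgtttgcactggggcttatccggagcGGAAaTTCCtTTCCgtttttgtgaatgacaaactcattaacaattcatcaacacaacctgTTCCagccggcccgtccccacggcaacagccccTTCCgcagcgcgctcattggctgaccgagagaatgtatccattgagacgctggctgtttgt
Dusp5: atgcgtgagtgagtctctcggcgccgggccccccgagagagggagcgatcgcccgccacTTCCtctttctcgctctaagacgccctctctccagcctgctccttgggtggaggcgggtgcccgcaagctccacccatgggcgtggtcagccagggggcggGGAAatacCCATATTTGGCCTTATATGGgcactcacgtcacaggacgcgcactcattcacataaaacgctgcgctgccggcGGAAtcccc
Spred1: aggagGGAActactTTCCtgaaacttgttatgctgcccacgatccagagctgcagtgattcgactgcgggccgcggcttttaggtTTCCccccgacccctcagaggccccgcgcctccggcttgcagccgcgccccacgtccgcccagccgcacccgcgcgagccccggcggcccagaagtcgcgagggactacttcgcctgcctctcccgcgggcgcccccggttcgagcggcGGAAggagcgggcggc
Spred2: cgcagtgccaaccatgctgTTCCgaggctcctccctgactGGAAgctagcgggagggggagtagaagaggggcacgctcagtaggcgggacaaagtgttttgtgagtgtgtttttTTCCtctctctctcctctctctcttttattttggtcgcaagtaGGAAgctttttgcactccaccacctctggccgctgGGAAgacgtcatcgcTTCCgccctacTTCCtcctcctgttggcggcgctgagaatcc
The Dusp6 window held 6 cores, Spred2 held 7, Spred1 held 4 and Dusp5 held 3. A core is common, found in 93.4% of the 27018 promoters of that length with a median of 3. The longer form CGGAA, which contains the core, was found in these 4 genes and in 25.4% of all promoters, and not in the windows of Spry1, Spry2 and Etv5. Dusp5 alone held CArG boxes, CCATATTTGG and CCTTATATGG, whose first bases lie 82 and 72 bases before the start. They adjoin without overlap, and 1.4% of all promoters hold such a box. The cAMP element core TGACG was found in Dusp5 and Spred2 (17.9% of promoters), and the AP-1 site TGANTCA in none of the 7 (6.87%), both strands searched. These are letter matches in a short window, and binding was not measured.

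The Sprouty genes encode inhibitors induced by growth factors. All 3 had a negative log2 fold change, and only Spry4 had groups that did not overlap. Differences between the 3 genes were not tested. Spry4 was at 216, 286 and 289 in Usp24C1695A tumors, against 385, 485 and 549.9 in Usp24WT tumors. The groups were apart, at 264 ± 41.4 in Usp24C1695A tumors and 473 ± 82.9 in Usp24WT tumors (SD, n = 3 each, log2 fold change -0.84, SE 0.22). Spry1 was at 1313, 754 and 457 in Usp24C1695A tumors, against 985, 1262 and 1315 in Usp24WT tumors (log2 fold change -0.62, SE 0.35). Spry2 was at 1782, 1156 and 768 in Usp24C1695A tumors, against 1441, 2499 and 1709 in Usp24WT tumors (log2 fold change -0.65, SE 0.33). In both genes library M134 was within the Usp24WT range and library M164 was the lowest. Without library M164 the log2 fold change was -0.24 for Spry1, -0.35 for Spry2 and -0.91 for Spry4.

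Spred1, the member of its family mutated in Legius syndrome in humans, was at 3578, 4578 and 2162 in Usp24C1695A tumors, against 6355, 4717 and 7391 in Usp24WT tumors. The mean was 55.9% of that of Usp24WT tumors (log2 fold change -0.88, SE 0.30), although the nearest values of the groups, in M145 and M1364, differed little. Spred2 was at 470.3, 705 and 639.5 in Usp24C1695A tumors, against 776, 766 and 1028 in Usp24WT tumors, again with a narrow gap (log2 fold change -0.51, SE 0.22). Unlike Spred1, its lowest value was in library M134.

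Etv4 had the largest difference of the 10 genes and the lowest counts. It was at 40.5, 78.2 and 35.6 in Usp24C1695A tumors (40, 79 and 18 reads), against 112, 83.5 and 115 in Usp24WT tumors (108, 58 and 122 reads). The mean was 49.7% of that of Usp24WT tumors (log2 fold change -1.07, SE 0.37). Etv5 was far more abundant, at 3389, 2817 and 1406 in Usp24C1695A tumors, against 5488, 2343 and 4778 in Usp24WT tumors (log2 fold change -0.73, SE 0.40). Its groups overlapped through Usp24WT library M1364, which lay below mutant libraries M134 and M145.

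Per kilobase of annotated exon (GENCODE M21), the members covered a wide range of levels. In Usp24C1695A tumors Etv5 (618 ± 248.8 normalized reads per kilobase), Spry2 (592 ± 245), Dusp6 (525 ± 43.4) and Spred1 (507 ± 179) were the highest, and their means did not differ beyond their SD (n = 3). This SD is that between mice. Within mice M134, M145 and M164, Etv5 (825.9, 686.5 and 342.6) was above Spred1 (527.4, 674.9 and 318.7) each time. In Usp24WT tumors the same genes stood at 1024 ± 402 for Etv5, 902 ± 263 for Spry2, 925 ± 109 for Dusp6 and 907 ± 199 for Spred1, also within their SD of each other. Spry1 followed at 289 ± 149 in Usp24C1695A tumors and 409 ± 61.1 in Usp24WT tumors, and Spred2 at 131 ± 26.3 in Usp24C1695A tumors and 185 ± 32.2 in Usp24WT tumors. Spry4 (55.4 ± 8.7 in Usp24C1695A, 99.6 ± 17.5 in Usp24WT) and Dusp4 (57.4 ± 39.1 in Usp24C1695A, 73.6 ± 36.9 in Usp24WT) were not separated by their SD, although Spry4 was above Dusp4 in each Usp24WT mouse. Dusp5 was at 37.7 ± 10.7 in Usp24C1695A tumors and 45.6 ± 7.47 in Usp24WT tumors, and Etv4 was the lowest at 16.6 ± 7.5 in Usp24C1695A tumors and 33.3 ± 5.58 in Usp24WT tumors. Exons of Dusp5 and Spry1 overlap annotated transcripts of the opposite strand, over 547 and 710 bases, and whether the counting used strand is not given in the sources used here.

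**Figure D2:**
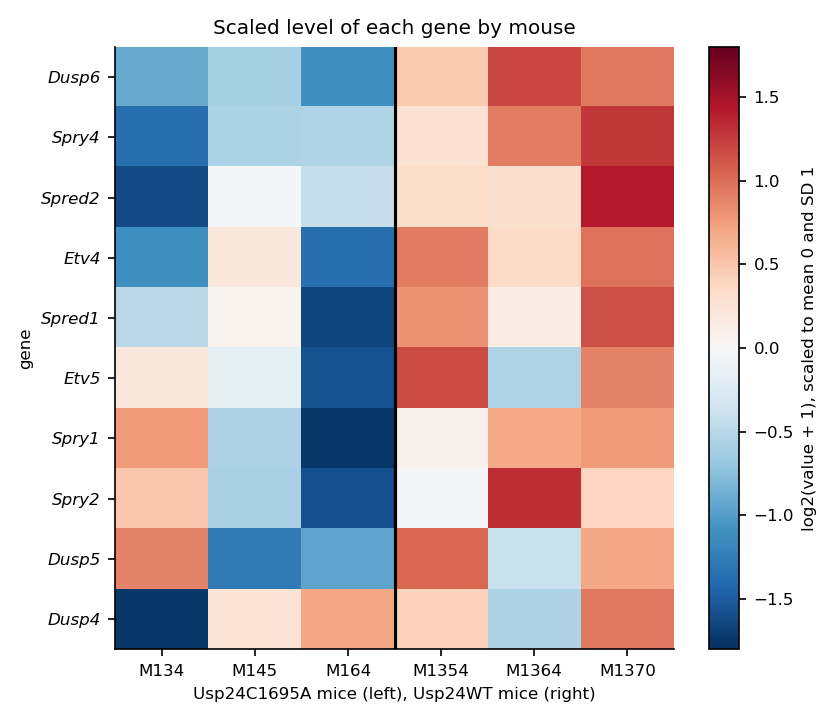
Level of each gene by mouse, as log2(value + 1) scaled to mean 0 and SD 1 over the 6 libraries (red high, blue low), with the Usp24C1695A mice left of the line and the Usp24WT mice right of it. In the top 5 rows every Usp24C1695A mouse is below every Usp24WT mouse. Below them, Spry1, Spry2 and Dusp5 are lowest in M145 and M164, and Dusp4 is lowest in M134.

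The members differed in their pattern by mouse. Over the 6 libraries on the log2 scale, Dusp6 and Spry4 had a Pearson correlation of 0.92, Spred1 and Etv4 of 0.94, and Spry1 and Spry2 of 0.93. These pairs are named because they were the 3 highest of the 45. With the group means taken out, they were at 0.50 for Dusp6 and Spry4, 0.86 for Spred1 and Etv4, and 0.90 for Spry1 and Spry2. Dusp4 had a correlation of -0.46 with Spry1 and -0.50 with Spry2, but of 0.53 with Spry4. Of the 45 pairs, 42 had a positive correlation (median 0.53). After the group means were taken out, 26 pairs were positive and the median was 0.23. These correlations rest on 6 libraries that differ from each other in depth and tissue makeup, and are a description. Both genes of a pair come from the same libraries, and the part of these differences in the correlations was not tested. Library M164 held the lowest value of 6 members, M134 of 3 and M145 of 1. No Usp24WT library held the lowest value of any member. The same counts over all genes tested were not computed, so these cannot be read as particular to the members.

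Outside the members, the 10 tested genes whose pattern over the 6 libraries was most like the mean of the scaled members were Mvp (r = 0.997), Gfer (0.994), Paxip1 (0.992), Nf1 (0.992), Limk1 (0.992), Nemp1 (0.992), Ash1l (0.990), Xrcc4 (0.989), Gm45332 (0.988) and Acvr1b (0.988). All 10 were lower in every Usp24C1695A library than in any Usp24WT library, beside 6.03% of all genes tested. This follows from how they were picked, since the mean of the scaled members itself separated the groups. That mean was -0.49, -0.33 and -1.02 in Usp24C1695A libraries M134, M145 and M164, against 0.55, 0.34 and 0.95 in Usp24WT libraries M1354, M1364 and M1370. Of all genes tested, 504 (3.03%) had a correlation of at least 0.9.

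The other genes of the pathway had smaller median differences. The members were chosen after their values had been seen, so this contrast in size is a description and not a result about them. Of 67 genes in 6 lists, 64 could be tested, and by limma-trend 0 passed the threshold in either direction (8 lower and 2 higher at an unadjusted p under 0.05, where 2.93% and 2.61% of all genes tested were). In 8 of the 64 all Usp24C1695A values were below the Usp24WT values and in 4 all were above, beside 6.03% and 5.07% of all genes tested. Their median log2 fold change was -0.16, and 49 of the 64 were negative, where 51.7% of all genes tested were.

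**Figure D3:**
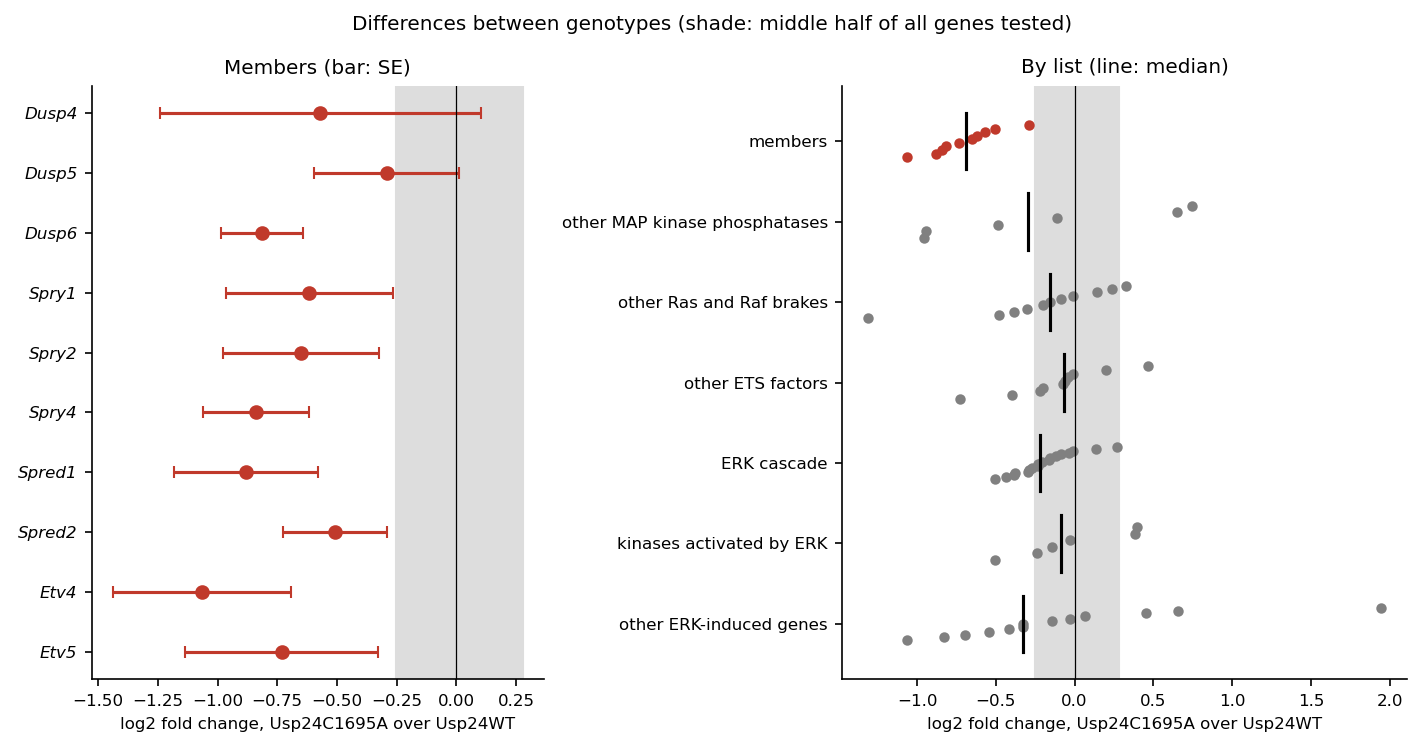
Log2 fold change, Usp24C1695A over Usp24WT (x axis), of the 10 members with the SE (left) and of the members and 6 other pathway lists with the list median as a line (right). Shading marks the middle range of all genes tested, -0.25 to 0.28. All 10 members, chosen after their values had been seen, lie to its left, whereas the other lists spread to both sides of 0.

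The kinases and adaptors between EGFR and ERK (18 genes) had a median of -0.22, and 16 were negative. The lowest p values were those of Braf, a Raf kinase (-0.44, SE 0.18), Ptpn11, the phosphatase SHP2 (-0.38, SE 0.20), and Map2k1, which encodes MEK1 (-0.51, SE 0.28). Egfr itself was at 151, 237 and 459 in Usp24C1695A tumors, against 172, 292 and 420.2 in Usp24WT tumors, with overlapping groups (-0.12, SE 0.45). Whether the reads of Egfr include the transgene is not given in the sources used here. Of the kinases that ERK activates (6 genes, median -0.09), Rps6ka3 was at -0.50 (SE 0.23), whereas Mknk2 (0.40, SE 0.19) and Rps6ka5 (0.39, SE 0.23) were higher in every Usp24C1695A library than in any Usp24WT library.

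Other MAP kinase phosphatases (6 tested, median -0.30) were split. Dusp16, which prefers JNK and p38, was at 1417, 1364.2 and 689 in Usp24C1695A tumors, against 1844, 1808 and 2910.4 in Usp24WT tumors (-0.95, SE 0.32). Dusp8 had a similar difference with overlapping groups (-0.95, SE 0.34). Dusp10 went the other way, at 180.4, 146 and 219.8 in Usp24C1695A tumors, against 132, 124 and 91.2 in Usp24WT tumors (0.65, SE 0.27). None of the 3 passed the threshold.

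Among the other brakes on the receptor, Ras or Raf (11 tested, median -0.16), Errfi1 had the largest difference. This gene encodes the ERK-induced EGFR inhibitor MIG6. It was at 5211, 5042 and 1859 in Usp24C1695A tumors, against 7737, 7683 and 12561 in Usp24WT tumors (-1.31, SE 0.41). Nf1, the Ras-inactivating partner of Spreds, was at 763, 856 and 683 in Usp24C1695A tumors, against 1022, 993 and 1194 in Usp24WT tumors (-0.48, SE 0.17). Both were apart between the groups, and neither passed the threshold. Dab2ip (-0.38, SE 0.23) overlapped.

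The other ETS factors (10 genes) had a median of -0.07. Etv1, the remaining PEA3 gene, was at -0.22 (SE 0.24). The lowest p values were those of Erf, a repressor that ERK moves out of the nucleus (-0.73, SE 0.30), Etv6 (-0.40, SE 0.21) and Ets1 (0.46, SE 0.26), none past the threshold.

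Other genes induced by ERK (13 tested, median -0.33) ran in both directions, with 9 negative and 4 positive. The genes named here do not reflect that balance. Epha2, a receptor tyrosine kinase, was at 676, 647 and 366 in Usp24C1695A tumors, against 953, 1069 and 1434 in Usp24WT tumors (-1.06, SE 0.28). Plaur, the urokinase receptor, was at -0.83 (SE 0.34) with overlapping groups. The immediate early gene Egr3 was higher in all Usp24C1695A tumors, at 28.4, 142 and 89.1, against 19.7, 14.4 and 19.7 in Usp24WT tumors (1.95, SE 0.58). Egr1 (0.65, SE 0.51) and Fos (0.45, SE 0.73) were highest in library M164, with Egr1 at 3253 and Fos at 2303, and their groups overlapped. None of these 5 genes passed the threshold.

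Levels of cell type genes also differed between the libraries. Genes of alveolar type 2 cells (8 of 8 in the table) summed to 172550 to 499360 in Usp24C1695A tumors and to 547180 to 622180 in Usp24WT tumors, and general epithelial genes (5 of 5) to 11810 to 28716 in Usp24C1695A tumors and to 24572 to 27416 in Usp24WT tumors, the lowest value of each being that of library M164. The sums of the 2 groups did not overlap for the alveolar type 2 genes and overlapped for the epithelial genes. No gene of these lists was at 0 in any library. Library M164 also had the highest sums of heart muscle genes (7 of 7; 510.5 to 5821 in Usp24C1695A, 155 to 266 in Usp24WT) and of fat genes (6 of 6; 704 to 190730 in Usp24C1695A, 510.4 to 656 in Usp24WT). Some defining genes were at 0 in Usp24WT libraries: Adipoq and the heart gene Nppa in M1364 and M1370, Plin1 and Myl7 in M1364, and Cfd in M1370. B cell genes (5 of 5) summed to 149 to 7332 in Usp24C1695A tumors and to 144.8 to 187 in Usp24WT tumors. Genes of club cells, whose promoter drives the oncogene, were higher on average in Usp24C1695A tumors (4 of 4, sums of 39346 to 87608, against 20941 to 41115 in Usp24WT tumors), with a mean log2 difference of 1.21, and 0.76 without M164. Macrophage genes (5 of 5) summed to 3900.4 to 24086 in Usp24C1695A tumors and to 23279 to 38111 in Usp24WT tumors, with a mean log2 difference of -0.62, and -0.16 without M164. Smooth muscle genes (4 of 5) summed to 981 to 12751 in Usp24C1695A tumors and to 665 to 1055 in Usp24WT tumors, with a mean log2 difference of 1.30, and 0.21 without M164. The ranges of the 2 groups overlapped in each of these 3 lists. The part of all these lists in the members' differences was not tested.

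**Figure D4:**
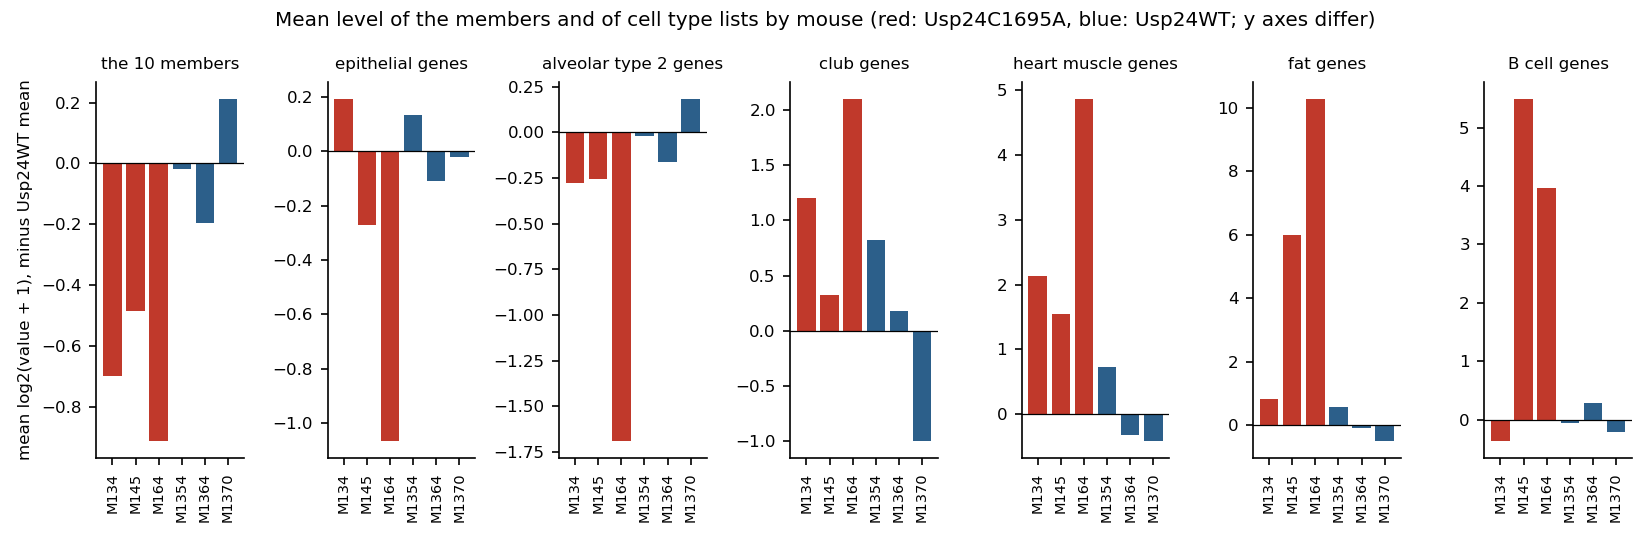
Mean log2(value + 1) of the 10 members and of 6 cell type lists in each mouse, minus the mean of the Usp24WT mice (y axes differ between panels). The members and the alveolar type 2 genes are lower in all 3 Usp24C1695A mice (red) than in any Usp24WT mouse, the type 2 genes mostly in M164. Epithelial genes are lowest in M164, and fat genes are high in M145 and M164.

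Without library M164, the mean of the members was lower by a log2 difference of -0.59, against -0.04 for the epithelial genes and -0.26 for the alveolar type 2 genes. With all 6 libraries these differences were -0.70 for the members, -0.38 for the epithelial genes and -0.74 for the alveolar type 2 genes. When each library was scaled to its epithelial genes, which moved the median of all genes to 0.36, 9 of the 10 members kept a negative value (median -0.31) and Dusp5 was at 0.09. When each was scaled to its alveolar type 2 genes, which moved the median of all genes to 0.72, the median of the members was 0.05. Each scaling adds nearly the same amount to every gene. That the members stayed below the median of all genes was therefore fixed in advance, and a change of sign is not particular to them. Neither outcome tells whether cell makeup has a part in the members' differences, which was not tested. Both scalings were chosen after the data were seen.

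Since Y-linked genes were found in all Usp24C1695A libraries and in Usp24WT library M1354 alone, the values were also set against that library. All 3 Usp24C1695A values were below that of M1354 in Dusp5, Dusp6, Spry4, Spred1, Spred2, Etv4 and Etv5, and 2 of 3 in Dusp4, Spry1 and Spry2. The share of all genes tested with all 3 values below this single library was not computed, so the count cannot be read as particular to the members. A fit with the Y-linked level as a covariate rests on the same single Usp24WT library and adds nothing independent to the comparison with M1354. In it the median of the members was -0.59, and 0 members had an unadjusted p under 0.05 by limma-trend. Without the covariate 5 members had, all lower, where 2.93% of all genes tested were lower at that p. The share of all genes was not computed for the fit with the covariate, so the change cannot be read as particular to the members.

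**Figure D5:**
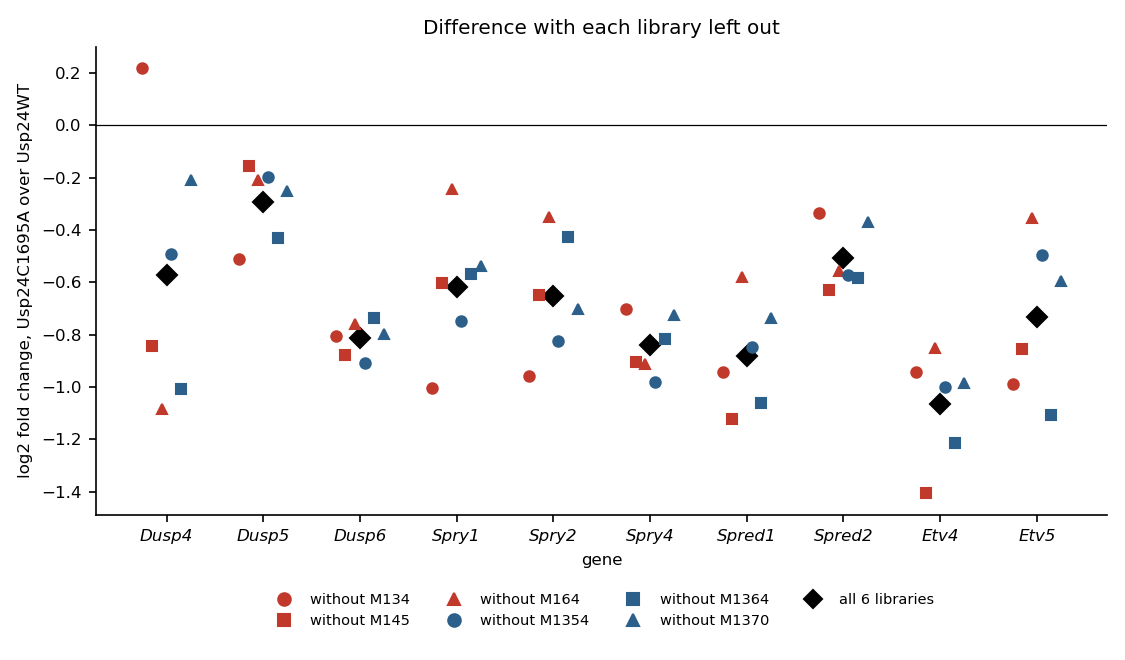
Log2 fold change, Usp24C1695A over Usp24WT (y axis), of each member with all 6 libraries (black) and with each library left out (red, a Usp24C1695A mouse left out; blue, a Usp24WT mouse left out). Dusp6 and Spry4 stay within a narrow band below 0, and Dusp4 crosses 0 without M134.

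Leaving out any library kept Dusp6 between -0.91 and -0.74 and Spry4 between -0.98 and -0.70. Spred1 ran from -1.12 to -0.58, Etv4 from -1.41 to -0.85 and Spred2 from -0.63 to -0.34. The spread was wider for Etv5, from -1.11 without M1364 to -0.35 without M164, and for Spry1, from -1.003 without M134 to -0.24 without M164.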

How the data were processed

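The labels name 3 μg of total RNA, a KAPA library and 150 bp paired reads, and HISAT2 2.1.0 and mm39 stand in the processing notes of the submitters. The read counter, annotation and filter are not given in the sources used here. The values deposited by the authors are signal values, gene counts divided by a size factor per library. All 107922 values were whole multiples of their library's step within 1e-06, so reads were recovered (for M145 the step is close to 1, and this rests on the residuals). The 16640 genes that reached 10 in 3 or more libraries were fitted with limma-trend (limma 3.58.1, R 4.3.3) on log2(value + 1), unlike the paper's DESeq, since the values are normalized; low genes are drawn toward 0. The recovered reads were tested with edgeR 4.0.16 and DESeq2 1.42.0 (386 genes had no adjusted p). The functions were tested on simulated data. The members and gene lists were chosen with earlier results of these data known. Named genes were the members, in each list the 3 with the lowest p, and the 10 most like the members; Egfr, Etv1, Egr1 and Fos are further list genes, which the rule allows, picked after their values were seen. P-values measure the spread between 3 mice per group. Figures were drawn with matplotlib 3.10.9.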

Additional observations from a re-analysis of the deposited data

How the results depend on the processing

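Of 18 alternatives, all kept the signs of Dusp6, Spry4, Spred1 and Etv4, and 17 kept a negative median of the 10 members. Limma-trend called 0 genes and 0 members; DESeq2 called 36 genes, of which 1 was a member, Dusp6 (adjusted p = 0.042, where DESeq2 called 0.0369% of genes as lower and edgeR quasi-likelihood gave Dusp6 an adjusted p of 0.696; over the alternatives by limma-trend the lowest adjusted p of a member was 0.0796 to 1). Left-out libraries gave 0 to 39 genes called (39 without M134, 5 without M1354), 0 members called and a member median of -0.87 to -0.57. By limma-trend 5 members were lower at an unadjusted p under 0.05, beside 2.93% of all genes tested. The count of members is 2 to 6 with a library left out (2 without M1354 or without M1370). It is 7 with array weights, the highest, and 4 with quantile normalization, TMM scaling, edgeR or DESeq2. It is 0 with the Y-linked covariate, with epithelial scaling or with alveolar type 2 scaling. The share of all genes lower at that p was not computed for these alternatives. Epithelial scaling gave a member median of -0.31 and turned Dusp5 (0.085). Alveolar type 2 scaling gave a member median of 0.047 with 4 negative members and turned Dusp4 (0.17), Dusp5 (0.44), Spry1 (0.12), Spry2 (0.087), Spred2 (0.23) and Etv5 (0.0078), where the median of all genes moved to 0.72. These scalings shift all genes nearly alike, so the turned signs are not particular to the members, and the part of cell makeup was not tested. Both divide every library by a marker mean that was lowest in M164. Dusp4 ran from -1.08 without M164 to 0.22 without M134. No other gene of the pathway was called under any alternative. No paired analysis was possible because the mouse numbers are not shared between the groups. The lowest count of a member was 18 reads, of Etv4 in M164.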
